A study of Homo sapiens with 6 samples.

Results

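Homologous recombination and DNA damage genes were represented by 9 members named in advance by symbol: BRCA1, BRCA2, PALB2, BARD1, FANCD2, FANCA, ATM, ATR and PARP1. They were 9 of the 61015 genes on file, and all 9 had enough counts to be tested. They were not chosen by their values, though earlier results of these data were known when they were named. RNA was measured in cells of MDA-MB-231, a triple-negative breast cancer line of human origin, selected for resistance to paclitaxel (PTX), a drug that stabilises microtubules. Live cells were sorted by aldehyde dehydrogenase (ALDH) activity with the ALDEFLUOR stain. The ALDH+ cells are called breast cancer stem cells (BCSC, n = 3 libraries) and the ALDH− cells non-BCSC (n = 3 libraries), and all 6 libraries come from the resistant line. The groups were taken from the sample titles, since every sample carries the same cell type label. Nothing in the labels says that the libraries of a group came from separate cultures, so p-values measure only the spread between these libraries, which may be technical. The comparison asked which RNAs differed between the ALDH+ and ALDH− cells of a resistant culture. Cells not selected with paclitaxel were not analysed here.

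Homologous recombination repairs a broken chromosome by copying the sister chromatid, and it works in S and G2 phase. The kinases ATM and ATR sense breaks and stalled forks, BRCA1 with its partner BARD1 promotes resection of the broken ends, and PALB2 brings BRCA2 to the site, where BRCA2 prepares the broken end for strand exchange. The Fanconi anaemia proteins remove crosslinks between the DNA strands and protect forks, while PARP1 marks strand breaks with ADP-ribose chains and is the target of drugs used against breast cancers that lack BRCA1 or BRCA2 function.

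The libraries held 9898588 to 21215352 counts, with every BCSC library deeper than every non-BCSC library. The 9 genes together took 1538 to 1757 CPM (counts relative to the TMM-scaled size of each library) in BCSC and 1421 to 1502 CPM in non-BCSC, and each gene had at least 197 counts in every library. Summed levels of 8 mesenchymal marker genes, which this line is known for, were 6998 to 8239 CPM in BCSC and 4851 to 6471 CPM in non-BCSC. Luminal epithelial markers (8 genes) summed to 56.2 to 62.9 CPM in BCSC and 78.1 to 101 CPM in non-BCSC. Leukocyte and stromal markers (6 genes found, 1 of them at 0 in all 6 libraries) summed to 3.85 to 8.92 CPM in BCSC and 18.6 to 31.3 CPM in non-BCSC. Olfactory receptor genes, which a breast line should not use, summed to 41.2, 57.5 and 153 CPM in BCSC and to 544, 701 and 1166 CPM in non-BCSC. The part of these signals in the differences described here was not tested for the marker lists, while values with an olfactory background removed are given for each named gene whose call they changed.

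Of the 9 genes, 4 rose in BCSC and 0 fell with TMM scaling (edgeR quasi-likelihood test, adjusted p under 0.05). Of the 20442 genes tested, 15.3% rose and 14.6% fell. With RLE size factors in place of TMM only 1 of 9 rose and 0 fell, against 13.0% and 16.8% of all genes. The genes that rose with TMM scaling were BRCA2, PALB2, FANCD2 and FANCA. Only FANCA also passed a fold of 2, the study's criterion, which 8.85% of all genes passed upward and 11.3% downward. The estimate was above 0 for 8 of the 9 genes (6 with RLE size factors), with a median log2 fold change of 0.30 against -0.05 over all genes tested. The same 4 genes were those whose 3 BCSC values all lay above the 3 non-BCSC values, a pattern seen in 24.2% of all genes tested, while 27.9% showed the opposite one and 0 of the 9 did. The exact permutation p (two-sided) was 0.1 for each of these 4, which is as low as 3 against 3 libraries can go. In bulk RNA, fewer cells that carry a transcript and less of it per cell cannot be told apart.

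**Figure D1:**
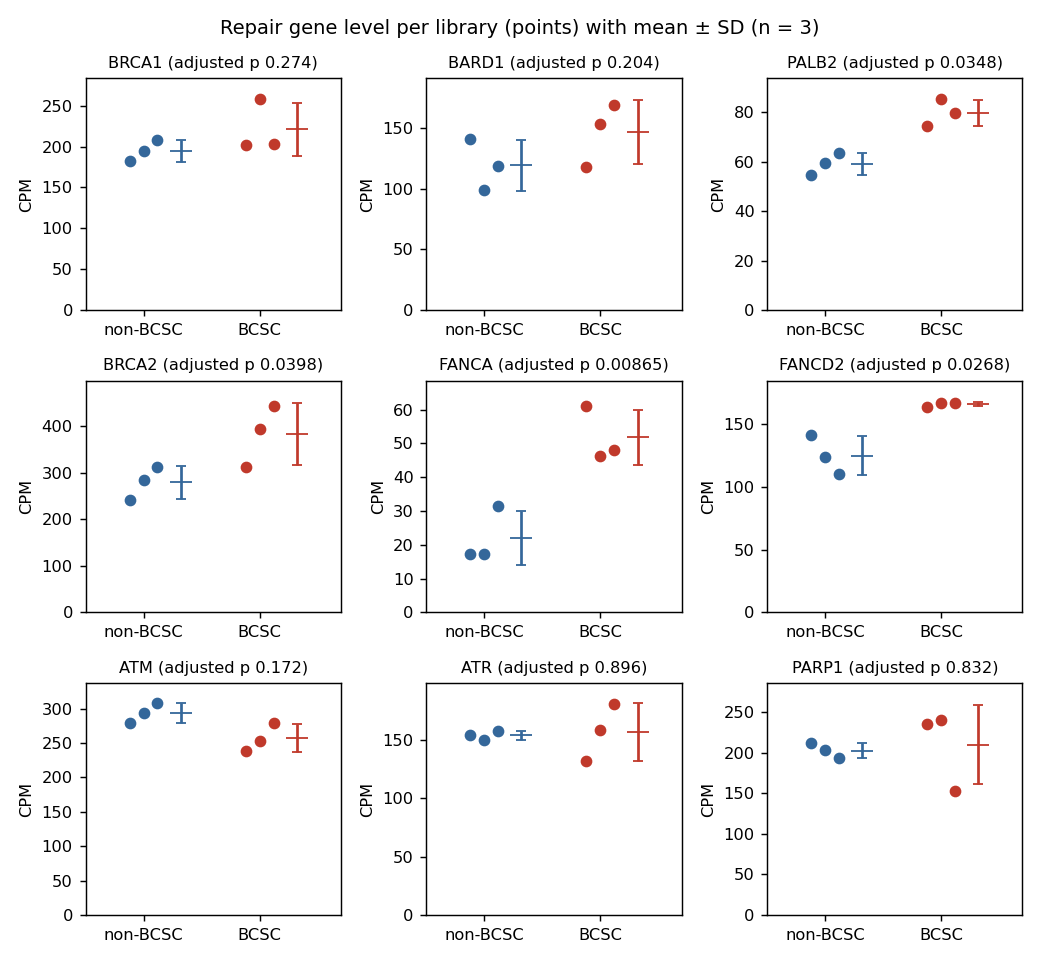
Level of each of the 9 repair genes in every library, in CPM from 0 on the vertical axis, with non-BCSC in blue, BCSC in red and bars for the mean ± SD (n = 3 per group). The BCSC points of BRCA2, PALB2, FANCD2 and FANCA lie above all non-BCSC points, those 4 calls being made with TMM scaling and only that of FANCA with RLE scaling, and the points of the other 5 genes overlap.

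BRCA1 and BARD1, which form a ubiquitin ligase that promotes end resection, did not pass the test. BRCA1 (GRCh37, chr17:41196312-41322262, minus strand) stood at 202, 259 and 204 CPM in BCSC and 182, 194 and 208 CPM in non-BCSC. The groups overlapped, because non-BCSC replicate 3 lay above BCSC replicates 1 and 3. Its log2 fold change was 0.19 ± 0.12 (SE), with a 95% interval of -0.09 to 0.46 and an edgeR adjusted p of 0.274. BARD1 (chr2:215590370-215674407, minus strand) stood at 118, 153 and 169 CPM in BCSC and 141, 98.6 and 118 CPM in non-BCSC. Non-BCSC replicate 1 was above BCSC replicate 1, and the log2 fold change was 0.30 ± 0.17 (95% interval -0.08 to 0.68, edgeR adjusted p = 0.204). Once counts were corrected for GC content and transcript length, 6 of the 9 genes were called higher and 0 lower, against 18.2% and 14.7% of all genes. Both BRCA1 (log2 fold change 0.42) and BARD1 (0.79) were among the 6. The 6 genes had 36.2% to 44.1% GC, below the median of 44.8% over all genes tested.

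PALB2 and BRCA2, which act together after end resection, both rose by a modest amount. PALB2 (chr16:23614481-23652642, minus strand) measured 74.4, 85.2 and 79.6 CPM in BCSC and 54.5, 59.3 and 63.5 CPM in non-BCSC. Every BCSC library was higher, with a gap between the groups. The group means were 79.7 ± 5.38 CPM and 59.1 ± 4.51 CPM (SD, n = 3), the log2 fold change was 0.43 ± 0.13 (SE) and the edgeR adjusted p was 0.0348. BRCA2 (chr13:32889223-32974405, plus strand) measured 313, 395 and 445 CPM in BCSC and 242, 285 and 312 CPM in non-BCSC. The lowest BCSC library and the highest non-BCSC library were almost level, so the groups were separated without a clear gap. The means were 384 ± 66.5 CPM and 279.9 ± 35.5 CPM, with a log2 fold change of 0.46 ± 0.14 and an edgeR adjusted p of 0.0398. The calls were close to the threshold: with RLE size factors the adjusted p was 0.0780 for PALB2 and 0.0854 for BRCA2, and with 1 library left out PALB2 passed only without non-BCSC replicate 3 (adjusted p = 0.0478) and BRCA2 in the fit without that library (0.0486) or without BCSC replicate 1 (0.0204). With the olfactory background removed their log2 fold changes were 0.20 and 0.19 and neither passed, and with the GC and length correction they were 0.86 and 0.96 and both passed.

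The 2 members with FANC symbols rose by different amounts. FANCD2, which is ubiquitinated when the pathway is switched on (chr3:10068054-10143616, plus strand), measured 164, 167 and 167 CPM in BCSC and 141, 124 and 110 CPM in non-BCSC. The BCSC libraries were nearly equal and lay above all 3 non-BCSC libraries. Means were 166 ± 1.90 CPM and 125 ± 15.5 CPM, the log2 fold change was 0.41 ± 0.12 (SE) and the edgeR adjusted p was 0.0268. FANCD2 missed the threshold with RLE size factors (adjusted p = 0.0534), with the background removed (0.342), and in every fit with 1 library left out except that without non-BCSC replicate 1 (0.0158).

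FANCA, a subunit of the nuclear core complex that ubiquitinates FANCD2 and its partner FANCI, showed the largest difference of the 9 genes. FANCA (chr16:89793091-89883385, minus strand) measured 61.1, 46.3 and 48.0 CPM in BCSC and 17.2, 17.4 and 31.4 CPM in non-BCSC. All BCSC libraries were above all non-BCSC libraries, and non-BCSC replicate 3 was the highest of its group. The means were 51.8 ± 8.10 CPM and 22.0 ± 8.10 CPM, a fold of 2.36, with a log2 fold change of 1.24 ± 0.26 (SE) and an edgeR adjusted p of 0.00865. FANCA passed the test in all 6 fits with 1 library left out, with log2 fold changes of 1.11 to 1.60, but not after the GC and length correction (0.23, adjusted p = 0.556) or in a sum over its protein-coding transcripts only (-0.38, adjusted p = 0.590). At 54.5% GC it was the most GC-rich of the 9 genes, the median of all genes tested being 44.8%. Over the genes tested the log2 fold change rose with GC content (Spearman rho 0.54, as a description). After the GC and length correction rho was -0.12, so a weaker trend in the opposite direction remained.

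ZNF276, a zinc finger gene on the opposite strand, overlaps FANCA. Its own summed counts were 862 in BCSC against 273 in non-BCSC, or 31.4% and 37.2% of the FANCA counts. The library preparation kept strand, but whether strand was used in counting is not stated, so the 2 genes may share reads. The other overlapping genes and pseudogene copies of the 9 held at most 6.73% of a member's counts.

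The promoters of FANCA and FANCD2 are shown because they are the 2 members with FANC symbols and both rose. Each holds a short motif, marked below, that the other lacks, and both hold the GC box letters GGGCGG. Sequences are from RefSeq (GRCh38.p14), 5′ to 3′ on the strand of the gene, from 250 bases before to 30 bases after the start, at chr16:89816618-89816897 (minus strand) for FANCA and chr3:10026187-10026466 (plus strand) for FANCD2. Capitals mark the CCAAT box letters CCAAT in FANCA and the E2F letters GGCGGGAA in FANCD2.
FANCA: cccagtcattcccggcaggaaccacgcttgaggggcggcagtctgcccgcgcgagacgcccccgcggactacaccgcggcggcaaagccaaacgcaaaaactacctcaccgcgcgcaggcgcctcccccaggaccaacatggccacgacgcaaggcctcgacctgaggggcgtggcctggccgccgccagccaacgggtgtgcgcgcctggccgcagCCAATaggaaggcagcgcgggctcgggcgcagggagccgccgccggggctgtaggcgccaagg
FANCD2: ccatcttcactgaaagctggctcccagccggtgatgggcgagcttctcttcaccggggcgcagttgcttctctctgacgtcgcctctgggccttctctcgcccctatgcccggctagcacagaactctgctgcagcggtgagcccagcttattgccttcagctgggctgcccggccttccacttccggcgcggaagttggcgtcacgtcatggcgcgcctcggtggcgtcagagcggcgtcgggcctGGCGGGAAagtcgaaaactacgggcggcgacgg
The windows hold 72.9% and 65.7% G or C. Searched on both strands, CCAAT was in 33.6% of 35116 promoters of this length and GGCGGGAA in 2.98%. Among 11 annotated promoter windows of the 9 genes, CCAAT was in 5 (of ATM, PALB2, FANCA and BRCA1) and GGCGGGAA in 1 (of FANCD2), while the GC box letters GGGCGG were in 6 against 44.1% of all promoters and TTTGAA was in 1 (of ATM) against 14.5%. CCAAT was thus present both in genes that rose and in genes that did not pass the test.

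The damage kinases did not pass the test. ATM, the kinase that responds to double-strand breaks (chr11:108093771-108239829, plus strand), measured 239, 253 and 279.0 CPM in BCSC and 278, 294 and 308 CPM in non-BCSC. The groups met at the edge, BCSC replicate 3 lying just above non-BCSC replicate 1. Means were 257 ± 20.5 CPM and 293 ± 14.7 CPM, and ATM was the only member with an estimate below 0 (log2 fold change -0.19 ± 0.10, 95% interval -0.42 to 0.03, edgeR adjusted p = 0.172). It was called lower when genes needed at least 10 counts in every library (-0.34, adjusted p = 0.0224) and with the background removed (-0.47, adjusted p = 0.0208), and its estimate turned to 0.14 with the GC and length correction. ATR, the kinase of stalled forks and single-stranded DNA (chr3:142167849-142297575, minus strand), measured 131, 158 and 180.3 CPM in BCSC and 154, 150.0 and 157 CPM in non-BCSC. BCSC values lay on both sides of the narrow non-BCSC range. The log2 fold change was 0.03 ± 0.13 (95% interval -0.26 to 0.31, edgeR adjusted p = 0.896), and 0.45 with a call as higher after the GC and length correction. Transcripts annotated with a retained intron took 97.3%, 49.8% and 98.5% of the ATR sum in the BCSC libraries. They took 100%, 100% and 75.7% of it in the non-BCSC libraries, where protein-coding transcripts held 0% throughout. The reference transcript, ATR-201, was detected only in BCSC replicate 2, with 38.3% of the sum. The sum therefore cannot be read as a level of protein-coding ATR RNA.

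PARP1, the main enzyme of poly-ADP-ribose synthesis (chr1:226547911-226595855, minus strand), also did not pass. It measured 236, 241 and 153 CPM in BCSC and 211.5, 203 and 194 CPM in non-BCSC. BCSC replicate 3 was the lowest of all 6 libraries, and the other BCSC libraries were the highest. The log2 fold change was 0.05 ± 0.16 (95% interval -0.31 to 0.41, edgeR adjusted p = 0.832), and the SD was 49.1 CPM in BCSC against 8.95 CPM in non-BCSC. The intervals of BRCA1, ATR and PARP1 all held 0 and ended below 0.5 on the log2 scale.

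**Figure D2:**
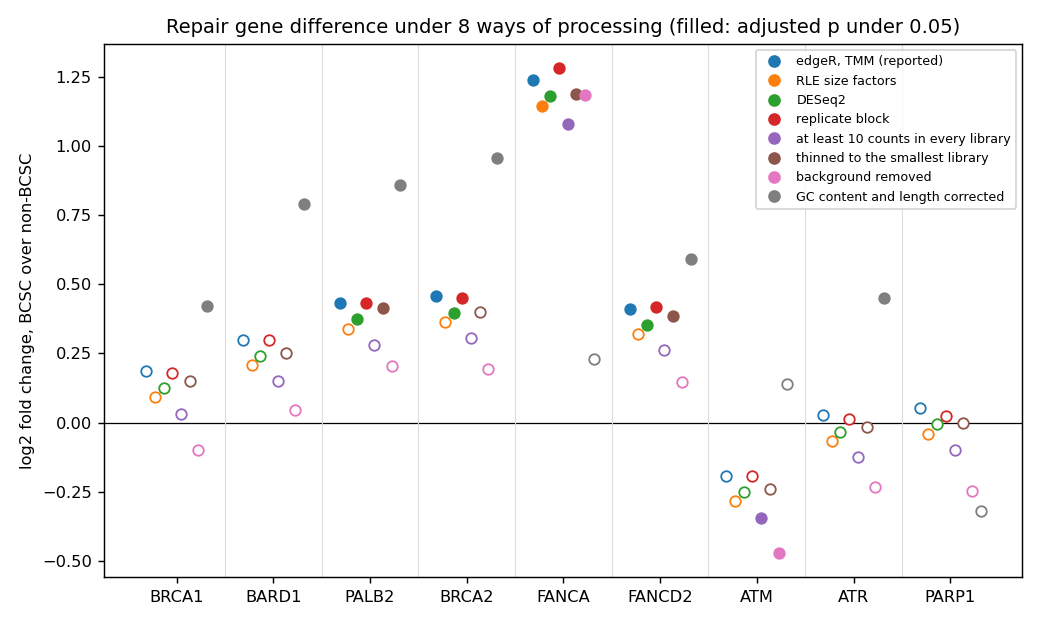
Log2 fold change (BCSC over non-BCSC, vertical axis) of each repair gene under 8 ways of processing, filled where the adjusted p was under 0.05. FANCA lies near 1.2 in 7 of them and at 0.23 after the GC and length correction, where BRCA1, BARD1, PALB2, BRCA2, FANCD2 and ATR are filled, and BRCA1, ATM, ATR and PARP1 change sign between settings.

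Per length of transcript the order of the genes can be read within each group, in TPM (counts divided by transcript length, then scaled to a common total). In non-BCSC the order was PARP1 (130 ± 16.6 TPM), ATM (124 ± 14.9), BRCA1 (107 ± 15.8), BRCA2 (88.6 ± 14.5), FANCD2 (73.2 ± 6.90), ATR (70.2 ± 7.08), BARD1 (63.4 ± 11.9), PALB2 (47.7 ± 5.19) and FANCA (17.6 ± 9.13). The only neighbours in this order whose values did not overlap were PALB2 and FANCA. In BCSC the order was PARP1 (128 ± 23.9 TPM), BRCA1 (124 ± 26.1), ATM (97.6 ± 13.8), FANCD2 (97.5 ± 5.49), BRCA2 (97.2 ± 20.7), BARD1 (77.3 ± 14.3), ATR (71.0 ± 16.2), PALB2 (50.8 ± 5.63) and FANCA (47.0 ± 6.95). Here only ATR and PALB2 did not overlap as neighbours, and FANCA, the lowest of the 9 in both groups, overlapped PALB2. PARP1 and FANCA kept the highest and lowest places by their means.

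Each gene was next taken as a share of the summed counts of the 9 genes, which depends on no scaling between libraries. ATM took 15.5%, 14.4% and 16.2% of that sum in BCSC against 19.6%, 20.6% and 20.5% in non-BCSC. The groups did not overlap, and the means were 15.4% ± 0.898 and 20.2% ± 0.562 (SD, n = 3). FANCA took 3.13% ± 0.733 in BCSC and 1.51% ± 0.502 in non-BCSC, and PALB2 4.77% ± 0.135 and 4.07% ± 0.211, both without overlap. ATR took 9.33% ± 0.998 and 10.6% ± 0.190, also without overlap, though the groups overlapped once the background was removed. BRCA2 was the largest share in BCSC (22.9% ± 2.73, against 19.3% ± 1.99 in non-BCSC) and its groups overlapped, as did those of BRCA1, BARD1, FANCD2 and PARP1. With 9 shares compared, the exact permutation p (two-sided) was 0.1 for ATM, FANCA, PALB2 and ATR, again the lowest that 3 against 3 can give. A share shows unequal change among the 9 genes and not which of them changed.

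**Figure D3:**
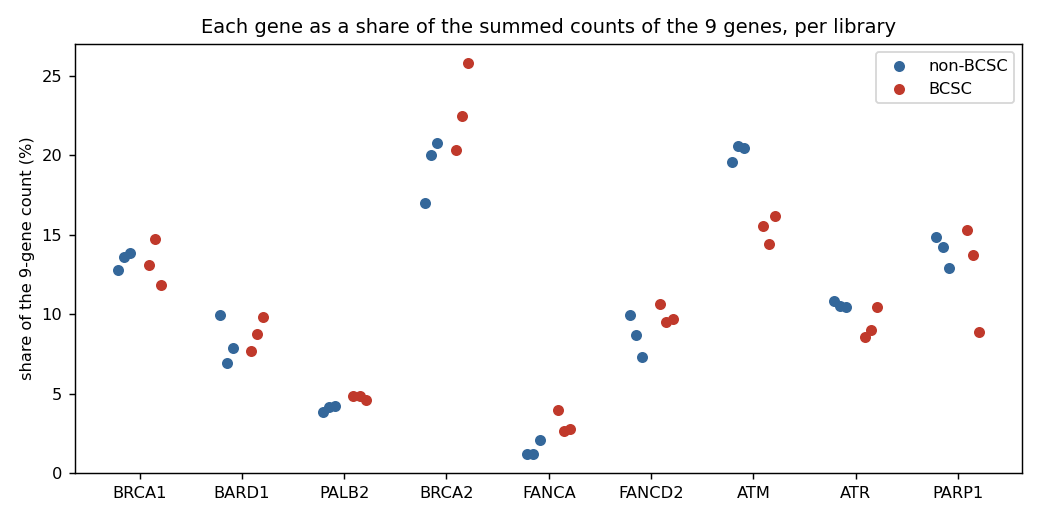
Share of the summed counts of the 9 genes taken by each gene (%, vertical axis from 0), 1 point per library, non-BCSC in blue and BCSC in red. ATM and ATR points are lower in BCSC (ATM 15.4% against 20.2% by the mean) and PALB2 and FANCA points higher, without overlap, while the other 5 genes overlap.

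The deposited table lists transcripts, and 251 annotated transcripts belong to the 9 genes, of which 181 had counts and 81 were tested. At this level 1 transcript rose and 0 fell, against 0.606% of 46176 transcripts tested that rose and 0.204% that fell (edgeR adjusted p under 0.05). At an unadjusted p under 0.05 there were 9 higher and 4 lower, and DESeq2 called 4 higher and 4 lower. The shares of all transcripts by these measures are not given here, so these counts have no reference. The transcript that rose was ATM-201 (ENST00000278616.9), annotated as a target of nonsense-mediated decay, the pathway that degrades transcripts with early stop codons. It held 651, 599 and 336 counts in BCSC against 0 in each non-BCSC library, at least 120.96-fold higher against a floor of 3 counts per library, with an adjusted p of 0.0467. ATM as a gene did not rise, and ATM-201 held 7.28% to 15.5% of its counts in BCSC. The call was lost with a replicate block and in all 6 fits with 1 library left out.

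Which transcript led a gene varied between libraries, and only BARD1 had the same leader in all 6, BARD1-201 with 80.8% to 95.6% of the counts. BRCA2-201, the reference (MANE) transcript, held 96.9%, 96.5% and 96.6% of BRCA2 counts in BCSC against 56.3%, 31.7% and 87.8% in non-BCSC, where BRCA2-210 held 40.1% of replicate 1 and BRCA2-206 held 45.9% of replicate 2. The BCSC libraries were alike, and each non-BCSC library differed. BRCA1-203, the reference transcript of BRCA1, ran from 2.35% to 85.3% within non-BCSC and from 40.6% to 74.8% in BCSC. PARP1-203 held 12.6%, 59.8% and 79.9% in BCSC against 93.7%, 0% and 81.2% in non-BCSC, replicate 2 of which had 94.5% on PARP1-226, a retained-intron transcript. For both BRCA1 and PARP1 the shares of the groups overlapped.

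The share of all transcripts that separate the groups is not given here. Of transcripts annotated with a retained intron, BRCA1-202, ATR-210, ATR-218, ATR-222, PARP1-212 and PARP1-226 overlapped between the groups in their shares of gene counts. In these shares some other transcripts with a retained intron separated the groups, though none passed the adjusted test. PALB2-217, such a transcript, held 15.4%, 5.90% and 10.4% of PALB2 counts in BCSC against 48.3%, 63.0% and 46.4% in non-BCSC, while PALB2-201, which encodes the protein, held 15.9%, 55.3% and 32.4% in BCSC against 3.79%, 0.894% and 0% in non-BCSC. The shares of both did not overlap between the groups. FANCA-233, with a retained intron, held 46.0%, 37.9% and 38.2% in BCSC against 17.7%, 25.4% and 31.2% in non-BCSC, and FANCA-202, the reference transcript, held 10.6%, 0% and 1.64% against 65.1%, 60.9% and 24.8%. FANCA therefore had a smaller share on its reference transcript in the group where its sum was higher. FANCD2-201 held 9.44%, 9.25% and 10.7% in BCSC against 26.5%, 46.6% and 87.5% in non-BCSC, without overlap. ATM-241, with a retained intron, led ATM in all 3 BCSC libraries and in non-BCSC replicate 3, and ATM-203, which encodes a protein, led non-BCSC replicates 1 and 2 (53.4% in the latter) and was at 0% elsewhere. The step that assigned reads to transcripts of a gene is not given, so these splits between overlapping transcripts are less certain than the sums.

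**Figure D4:**
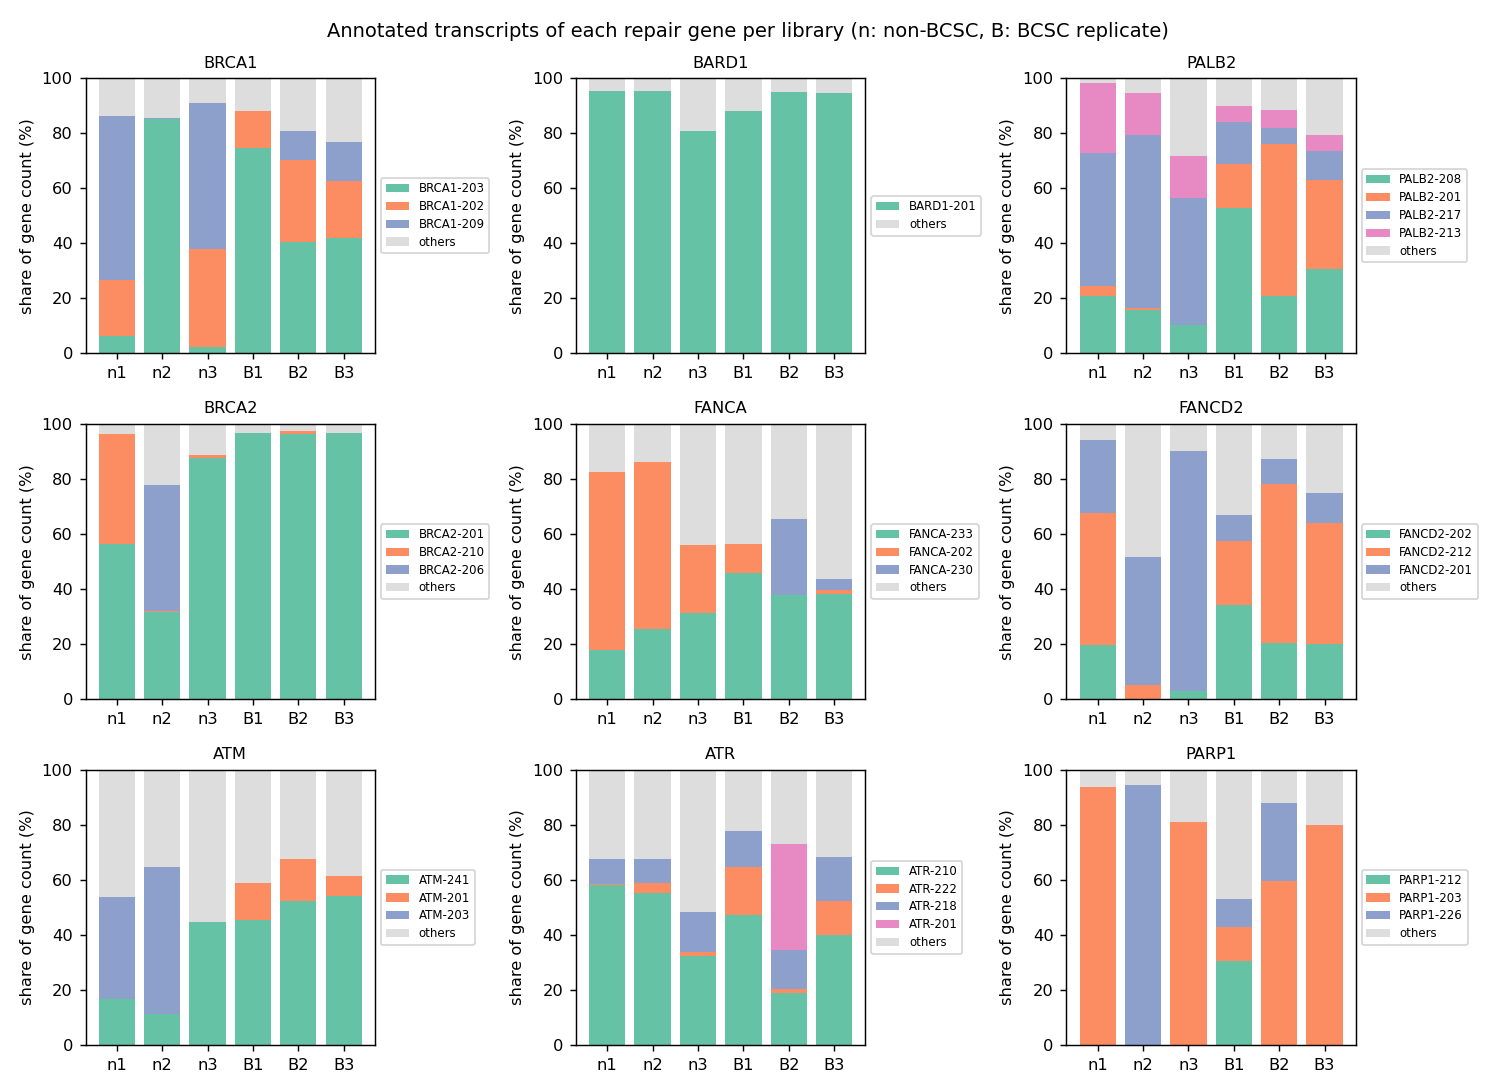
Share of each gene's counts (%, vertical axis) held by its transcripts in each library, with n1 to n3 for non-BCSC and B1 to B3 for BCSC. Transcripts with at least 10% of the counts in either group are coloured and the rest are grey: BARD1 is led by BARD1-201 in every bar, whereas the leading transcript changes between libraries in the other 8 genes.

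Beyond the 9 genes, 122 genes in 7 other DNA repair lists were tested, of which 35 rose and 7 fell with TMM scaling, with a median log2 fold change of 0.27. With RLE size factors 31 rose and 10 fell, against 13.0% and 16.8% of all genes. With the GC and length correction 52 rose and 3 fell, against 18.2% and 14.7% of all genes, and with the background removed 21 rose and 17 fell, against 15% and 12.9%. Each list is described by its counts alone, to be read against the 15.3% and 14.6% of all genes without these corrections. In sums over protein-coding transcripts only 14 rose and 5 fell. The shares of all genes in those sums are not given here, so these counts have no reference. Of the genes named below, RAD54L, GEN1, SEM1, FANCI, FANCG, PRKDC, POLL, XRCC4, MSH6, DDB1 and ERCC3 missed the threshold in those sums and ERCC4 was called higher. SEM1, NEIL3 and XPA missed it with no filter on low counts.

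In the homologous recombination list 9 of 33 genes rose and 2 fell, against 20 and 1 with the GC and length correction and 7 and 6 with the background removed. RAD54L, a motor protein of the strand exchange step, rose from 9.97 ± 2.51 CPM in non-BCSC to 30.2 ± 1.29 CPM in BCSC (log2 fold change 1.60 ± 0.26, edgeR adjusted p = 0.00266). GEN1, a nuclease that resolves crossed strands, rose from 92.0 ± 10.6 to 154 ± 11.7 CPM (0.74 ± 0.12, adjusted p = 0.00337). XRCC3, a recombination mediator, had 3, 3 and 6 counts in the non-BCSC libraries and 8.17 ± 3.77 CPM in BCSC (adjusted p = 0.00211). RBBP8 (CtIP), which starts end resection with the MRE11 complex, fell from 446 ± 38.4 to 256 ± 11.7 CPM (-0.80 ± 0.10, adjusted p = 0.000904), though its estimate was 0.01 after the GC and length correction. SEM1, a small BRCA2-binding protein and proteasome subunit, fell from 34.5 ± 2.50 to 22.8 ± 3.20 CPM (adjusted p = 0.0449) but was called higher after the GC and length correction (0.89, adjusted p = 0.0115) and missed the threshold in all 6 fits with 1 library left out (adjusted p 0.0562 to 0.199).

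In the Fanconi anaemia list 4 of 16 genes rose and 0 fell, against 6 and 0 with the GC and length correction and 2 and 0 with the background removed. FANCI, the partner of FANCD2, rose from 164 ± 25.2 to 268 ± 12.8 CPM (log2 fold change 0.71 ± 0.12, edgeR adjusted p = 0.00404). FANCG and FANCE, subunits of the same core complex as FANCA, rose from 6.51 ± 2.74 to 24.7 ± 5.49 CPM (1.92 ± 0.37, adjusted p = 0.00609) and from 1.23 ± 0.890 to 7.28 ± 3.12 CPM (2.57 ± 0.71, adjusted p = 0.0243). Like FANCA, neither passed after the GC and length correction, with adjusted p values of 0.0963 and 0.111, and FANCE also missed the threshold without BCSC replicate 1 (0.116) or non-BCSC replicate 2. FANCI passed after that correction but not with the background removed (0.42, adjusted p = 0.0645) or in protein-coding transcripts only (0.53, adjusted p = 0.0957).

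Checkpoint and damage signalling genes rose in 6 of 20 cases and 0 fell, against 11 and 0 with the GC and length correction and 4 and 3 with the background removed. TOPBP1, which activates ATR, rose from 191 ± 15.8 to 288 ± 13.5 CPM (log2 fold change 0.59 ± 0.10, edgeR adjusted p = 0.00373). H2AX, the histone that ATM phosphorylates at breaks, rose from 15.7 ± 4.46 to 54.7 ± 14.6 CPM (1.80 ± 0.27, adjusted p = 0.00210), but its estimate turned to -0.45 with the GC and length correction.

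Among end joining genes 5 of 11 rose and 1 fell, against 5 and 1 with the GC and length correction and 2 and 3 with the background removed. POLQ, the polymerase of microhomology-mediated joining, rose from 138 ± 11.6 to 213 ± 9.70 CPM (log2 fold change 0.63 ± 0.11, edgeR adjusted p = 0.00333). PRKDC, the DNA-PK catalytic subunit, rose from 1029 ± 79.1 to 1371 ± 73.2 CPM (0.41 ± 0.09, adjusted p = 0.0114), and POLL, a gap-filling polymerase, from 2.22 ± 1.16 to 9.10 ± 1.19 CPM (2.03 ± 0.51, adjusted p = 0.0169). Neither call held after the GC and length correction (PRKDC 0.23, adjusted p = 0.106, and POLL 0.58, adjusted p = 0.334) or with the background removed (PRKDC 0.11, adjusted p = 0.322, and POLL 3.69, adjusted p = 0.108), and POLL also missed the threshold without BCSC replicate 1 (0.0692) or 2. XRCC4, the partner of ligase IV, fell from 49.0 ± 4.32 to 22.0 ± 3.52 CPM (-1.15 ± 0.19, adjusted p = 0.00308), with an estimate of 0.57 after the GC and length correction (adjusted p = 0.0649).

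Of the base excision and PARP genes 7 of 22 rose and 1 fell, against 6 and 1 with the GC and length correction and 4 and 1 with the background removed. FEN1, the flap nuclease, rose from 27.6 ± 6.32 to 75.5 ± 14.6 CPM (log2 fold change 1.45 ± 0.21, edgeR adjusted p = 0.00176). The glycosylases OGG1 and UNG, which remove oxidised guanine and uracil, rose with log2 fold changes of 1.56 ± 0.27 (adjusted p = 0.00393) and 1.65 ± 0.29 (0.00427). After the GC and length correction UNG passed and OGG1 did not (0.60, adjusted p = 0.122). NEIL3, a glycosylase active on single strands and crosslinks, fell (-0.42 ± 0.14, adjusted p = 0.0446), but was called higher after that correction (0.51), and it passed in 1 of 6 fits with 1 library left out, that without non-BCSC replicate 1. In mismatch repair 0 of 7 genes rose and 1 fell, MSH6 from 428 ± 9.65 to 315 ± 18.3 CPM (-0.44 ± 0.09, adjusted p = 0.00773). With the GC and length correction 3 of the 7 rose and 0 fell, and MSH6 did not pass (-0.24, adjusted p = 0.0897).

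Nucleotide excision genes rose in 4 of 13 cases and fell in 2. DDB1, which recognises damage with DDB2, rose from 113 ± 19.4 to 187 ± 32.8 CPM (log2 fold change 0.72 ± 0.16, edgeR adjusted p = 0.0120), and ERCC3, a TFIIH helicase, from 36.9 ± 4.51 to 64.2 ± 7.85 CPM (0.80 ± 0.16, adjusted p = 0.00781). XPA, the scaffold of the incision complex, fell from 18.6 ± 1.37 to 10.1 ± 0.961 CPM (-0.88 ± 0.25, adjusted p = 0.0258), and ERCC4 (XPF), an incision nuclease, from 77.6 ± 3.29 to 53.2 ± 8.60 CPM (-0.54 ± 0.15, adjusted p = 0.0248). After the GC and length correction 1 gene of this list was called higher and 0 lower, and DDB1 (0.09), ERCC3 (0.42), XPA (-0.05) and ERCC4 (-0.25) all missed the threshold. With the background removed 2 rose and 3 fell, and DDB1 did not pass (0.45, adjusted p = 0.0624). XPA and ERCC4 each passed in 1 of 6 fits with 1 library left out.

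**Figure D5:**
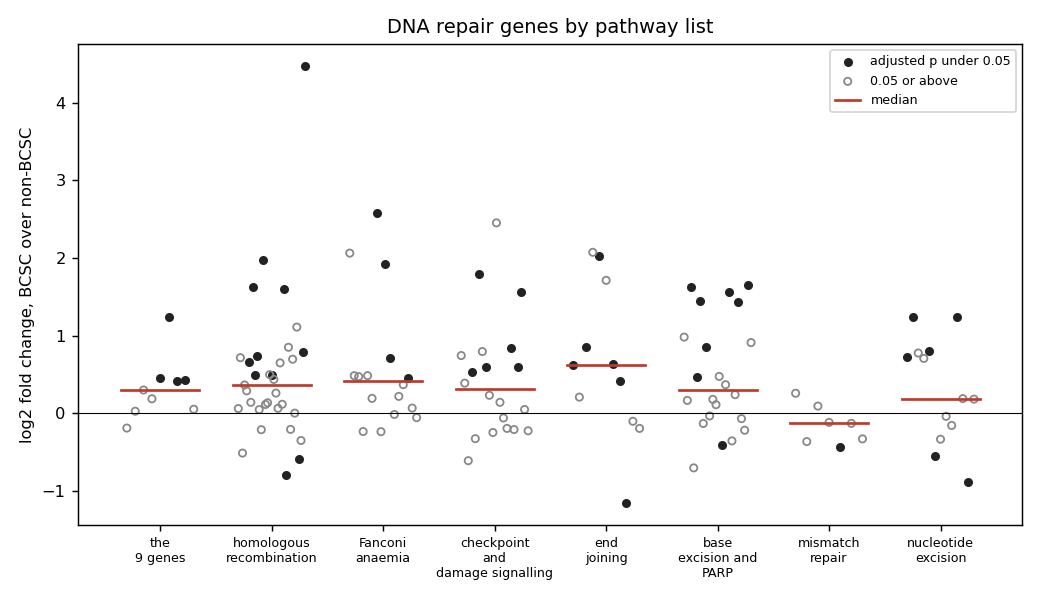
Log2 fold change (BCSC over non-BCSC, vertical axis) of every tested gene of the 9 members and 7 wider repair lists, with TMM scaling, filled where the edgeR adjusted p was under 0.05 and a red line at each list's median. Medians run from -0.13 in mismatch repair to 0.62 in end joining, and the 9 genes have a median of 0.30.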

How the data were processed

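Per the labels, cDNA of 6 sorted samples was made from total RNA with random primers and a dUTP second strand. The deposited values are whole-number estimated counts for each transcript, which the authors did not normalize. The study's methods give HISAT2 and hg19, whereas the submitters' processing notes name HISAT2, featureCounts, DESeq2 and hg38. The step that produced transcript counts is not given in the sources used here. Of 252618 transcripts, 249787 (98.9%, with 99.7% of the counts) matched GENCODE on GRCh37 by identifier and were summed to 61015 genes. Gene coordinates are GRCh37, from that annotation.

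Gene sums were tested by the robust quasi-likelihood test of edgeR 4.0.16 under R 4.3.3, with group as the term, TMM scaling, filterByExpr and Benjamini-Hochberg adjustment over 20442 genes, and transcripts likewise over 46176. Exact permutation tests used scipy 1.17.1. TPM values were summed over transcripts, each count divided by the transcript's annotated length. The GC content and length of a gene were means over its transcripts weighted by counts. Library totals were 9898588 to 21215352 counts. The limit for a value of 0 was 3 counts, or 0.141 to 0.303 CPM, which covers counting error only since reads carry no molecular identifiers. Library pairs within a group differed by more than counting error, so none was merged. On simulated data the fit recovered most genes with a 2-fold change at a low spread between libraries. At a wider spread, near the common estimate for genes in these data, it recovered no gene with that change. Transcripts simulated at that same spread were not recovered either, but their common estimate was larger (coefficient of variation 1.02 against 0.453 for genes). The common estimate need not hold for each gene, as FANCD2 passed with a fold of 1.33. A gene that did not pass may still differ.

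The 9 genes were named by symbol and not by their values. They, the wider lists and the alternatives were nevertheless chosen with earlier results of these data known. Named genes were the 9 members, transcripts with at least 10% of a member's counts in either group, and up to 3 higher and 3 lower genes of each wider list with the smallest p among those with an adjusted p under 0.05 and a mean of at least 50 counts. Some genes that this rule names are not reported here. Promoters came from RefSeq.

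The alternatives tried were DESeq2 1.42.0, RLE size factors, a replicate block, no filter, a minimum of 10 counts per library, each library left out, protein-coding transcripts only, a fold above 2, a loess correction for GC content and length (span 0.3), removal of a background per kb estimated from 407 olfactory receptor genes, and thinning to the smallest library. For the shares of the 9-gene count, the library left out and the removed background were added after the data were seen.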

Additional observations from a re-analysis of the deposited data

How the results depend on the processing

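Of the 9 repair genes, 4 were higher and 0 lower as reported, and the same counts came from DESeq2, no filter on low counts and the replicate block. The count higher was 6 with the GC and length correction, 1 with RLE size factors and 1 under a minimum of 10 counts per library. It was 1 with the background removed, 1 with a fold above 2 and 0 with protein-coding transcripts only, and ran from 1 to 3 with 1 library left out. The count lower was 1 under a minimum of 10 counts per library and 1 with the background removed. Under that minimum 19.2% of all genes were higher and 18.0% lower. Over the wider lists (35 higher, 7 lower), the count higher was 52 with the GC and length correction, 14 with protein-coding transcripts only, 21 with the background removed, 16 with a fold above 2 and 23 to 35 with 1 library left out, the lowest without BCSC replicate 2. The count lower was 4 with no filter, 16 under a minimum of 10 counts per library, 3 with the GC and length correction, 17 with the background removed, 1 with a fold above 2 and 3 to 5 with 1 library left out. Under the minimum of 10 counts per library 27 of 114 tested genes of the wider lists were higher and 16 lower (23.7% and 14.0%). For no filter, protein-coding transcripts only and 1 library left out, the shares of all genes are not given here. Over all genes, 3125 of 20442 tested were higher and 2978 lower. DESeq2 called 3296 higher and 5858 lower of 29477 genes with an adjusted p, a different set, so these counts cannot be compared directly. Of the repair transcripts, 1 was higher and 0 lower, against 4 and 4 by DESeq2, for which no share over all transcripts is given. There were 0 higher with the replicate block and 0 higher in all 6 fits with 1 library left out. Sums over protein-coding transcripts hold fewer transcripts, and the cause of these shifts, that fall to 0 included, was not tested.

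Same-numbered libraries had correlations of their deviations of 0.274, 0.0766 and 0.269 over 12576 genes, against at most 0.0054 between different numbers. Every library thus correlated best with its own number. The main test did not take the numbers as pairs, and whether they mark a shared batch was not tested. The replicate block gave 3788 genes higher and 3196 lower, and 41 and 8 of the wider lists. Estimates that changed sign were BRCA1 with protein-coding transcripts only (-0.033) and the background removed (-0.10), FANCA with protein-coding transcripts only (-0.38) and ATM with the GC and length correction (0.14). ATR turned to -0.067 with RLE size factors, -0.034 by DESeq2, -0.13 under a minimum of 10 counts per library, -0.23 with the background removed, -0.017 when thinned and -0.10 without BCSC replicate 3. PARP1 turned to -0.040 with RLE size factors, -0.0064 by DESeq2, -0.10 under a minimum of 10 counts per library, -0.40 with protein-coding transcripts only, -0.32 with the GC and length correction, -0.25 with the background removed, -0.0024 when thinned, and ran from -0.044 to 0.23 with 1 library left out, below 0 without BCSC replicate 1 (-0.044) or 2 (-0.031). Of the other genes, the GC and length correction turned RBBP8 to 0.0073, SEM1 to 0.89, H2AX to -0.45, XRCC4 to 0.57, NEIL3 to 0.51, MCM2 to -0.028 and the mesenchymal marker AXL to -0.27, and sums over protein-coding transcripts turned MSH6 to 0.077 and ERCC4 to 4.78. The 9 genes had at least 197 counts in every library, whereas XRCC3, FANCE and POLL had few in non-BCSC, which limits their folds.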

Other observations

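Proliferation genes, which follow the S and G2 phases in which recombination works, moved both ways: 5 of 15 rose and 1 fell, with a median of 0.20, against 15.3% and 14.6% of all genes tested. With the background removed 3 rose and 4 fell. E2F1 and E2F2, transcription factors of S phase entry, rose from 6.65 ± 2.68 to 25.2 ± 11.04 CPM (log2 fold change 1.92 ± 0.39, edgeR adjusted p = 0.00782) and from 8.10 ± 1.38 to 30.3 ± 7.48 CPM (1.90 ± 0.27, adjusted p = 0.00169). Neither passed after the GC and length correction (E2F1 0.07, adjusted p = 0.838, and E2F2 0.65, adjusted p = 0.0621). Subunits of the same replicative helicase differed in direction. MCM2 rose from 48.5 ± 16.1 to 123 ± 31.9 CPM (1.34 ± 0.26, adjusted p = 0.00635), with an estimate of -0.03 after the GC and length correction, and MCM3 fell from 384 ± 60.6 to 254 ± 27.95 CPM (-0.59 ± 0.13, adjusted p = 0.0116), though it missed the threshold without BCSC replicate 2 (0.0612), non-BCSC replicate 1 or non-BCSC replicate 2.

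For 8 of the 9 genes, the gene of the wider repair lists whose log2 CPM followed it most closely over the 6 libraries, among 117 candidates, was BRIP1 for BRCA2 (Pearson r 0.945), GEN1 for PALB2 (0.982), NBN for BARD1 (0.845), POLL for FANCD2 (0.985), FANCI for FANCA (0.970), RAD17 for ATM (0.964), NBN for ATR (0.944) and NEIL2 for PARP1 (0.764). These are descriptions: each is the highest of 117 values over 6 libraries in 2 groups, so they hold the difference between the groups.

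Among the marker lists, 4 of 8 mesenchymal genes were higher in BCSC and 1 lower, 0 of 7 tested luminal genes higher and 2 lower, and 0 of 3 tested leukocyte and stromal genes higher and 1 lower, against the same 15.3% and 14.6%. The last was PTPRC (CD45), at 0.579 ± 0.503 CPM in BCSC and 18.8 ± 4.98 CPM in non-BCSC (edgeR adjusted p = 0.000850). Its part in the repair gene differences was not tested.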
